A study of Mus musculus with 19 samples.

Results

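The genes described here encode the proteins of the cytosolic ribosome. They were taken as every protein-coding row of the count table whose GENCODE symbol begins with Rpl or Rps followed by a number and at most one of the letters a, x, y or l, together with Rplp0, Rplp1, Rplp2 and Rpsa. The rule found 81 of the 56980 genes in the table, 49 of the large (60S) and 32 of the small (40S) subunit. Their RNA was measured in CD11b+ cells that were enriched with magnetic beads (MACS) from brains, without cerebellum and olfactory bulb, of male mice aged 3 to 4 months. The mice were PARK7/DJ-1 KO, which carry the gene trap Park7 Gt(XE726)Byg on a C57BL/6NCrl background, or their wildtype littermates. They received an intraperitoneal injection of LPS, a bacterial endotoxin, at 4 μg/g body weight, or PBS, for 6 h. The 4 groups held 4 wildtype mice with PBS, 5 wildtype mice with LPS, 5 KO mice with PBS and 5 KO mice with LPS. The gene trap is carried by all cells of these mice, and the CD11b+ fraction can hold monocytes, neutrophils and border-associated macrophages beside microglia.

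A ribosome consists of 4 ribosomal RNAs and a protein set that is shared by nearly all cells. The small subunit reads the mRNA and the large subunit joins the amino acids. Most of the mRNAs of ribosomal proteins begin with a terminal oligopyrimidine (TOP) tract, an unbroken run of C and T bases at the transcript's start, through which mTORC1 and the RNA-binding protein LARP1 control their translation. Several of the proteins also act outside the ribosome, as regulators of p53, of NF-kappaB or of the translation of inflammatory mRNAs. Myeloid cells that meet LPS make large amounts of new protein, and the level of these mRNAs is one part of the capacity to do so.

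Total counts ranged from 11936364 to 22788884 per library, so that the 81 genes together held between 90918 and 275888 counts. A count of 3 was taken as the smallest signal of a library, which covers counting error only. Park7 was at 20.6 to 32.1 CPM (library-scaled counts with TMM factors) in the 9 wildtype libraries and at 0.457 to 5.38 CPM in the 10 KO libraries, in the direction of the labels. The 6 microglial markers used here (P2ry12, Tmem119, Cx3cr1, Sall1, Csf1r and Gpr34) had counts in all 19 libraries. Their summed level was 17783 to 27312 CPM in wildtype mice with PBS and 7723 to 12495 CPM with LPS, and 18638 to 27685 CPM and 8040 to 12715 CPM in KO mice. The 6 oligodendrocyte markers ranged from 558 to 11377 CPM over the 19 libraries and varied widely within every group.

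The region around the transcript start was examined first, since it carries the TOP tract. RefSeq windows of 250 bases before to 50 bases after the start (GRCm38.p6) were matched by symbol for 60 of the 81 genes. In 34 of these 60 (56.7%), a run of at least 8 pyrimidines lay within 30 bases of an annotated start, against 25.8% of all 27025 symbols in the same RefSeq table. The letters CCGGAA, the core of ETS factor sites such as those of GABP, stood on either strand of the 300 bases in 33 of the 60 (55%), against 16.7% of all symbols. GGGCGG, a box read by SP1, was found in 36 (60%) against 38.2%, AAGATGGC, a site of YY1, in 5 (8.33%) against 3.19%, and TATAAA in 6 (10%) against 15.7%. Such a match describes the letters and is not evidence of binding. Among the genes that were higher after LPS in wildtype mice by the test given below, 23 of the 37 with a window held the pyrimidine run, and among the other tested genes 11 of 21.

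The following windows of 30 bases are centred on the annotated start of genes at both ends of the LPS response, with 15 bases before and 15 bases from the start onward. The first 5 had the largest changes and the last 3 the smallest. Capitals mark the longest pyrimidine run of each window, and all are GRCm38.p6, 5′ to 3′ on the gene's strand, credited to RefSeq.
Rps10 (chr17:27635230-27635259, minus strand): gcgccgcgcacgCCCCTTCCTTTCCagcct
Rpl24 (chr16:55966260-55966289, plus strand): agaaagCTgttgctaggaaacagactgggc
Rps2 (chr17:24720048-24720077, plus strand): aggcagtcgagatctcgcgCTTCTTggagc
Rpl10a (chr17:28328456-28328485, plus strand): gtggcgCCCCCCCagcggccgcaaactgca
Rpsa (chr9:120127751-120127780, plus strand): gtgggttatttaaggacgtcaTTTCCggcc
Rpl22 (chr4:152325711-152325740, plus strand): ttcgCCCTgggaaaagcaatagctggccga
Rps4x (chrX:102189377-102189406, minus strand): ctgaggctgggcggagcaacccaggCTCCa
Rps27 (chr3:90213634-90213663, minus strand): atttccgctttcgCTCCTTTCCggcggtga
The longest runs were in Rps10 with 13 bases, one of the genes that rose most, and in Rps27 with 9 bases, one of those nearest to no change. Only in these 2 genes did the marked run span the annotated start. In the other windows it lay before or after the start, so they say nothing about a run at the start itself. The length of the longest run thus did not separate large from small changes in these 8 windows. Rpl10a and Rpl22 have 2 annotated starts, of which the first listed is shown.

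At PBS in wildtype mice the ribosomal protein genes covered a wide range of levels. Counts were related to the coding length, since transcript ends are annotated very unevenly for these genes. Rplp1, a protein of the stalk that recruits elongation factors, had the highest level per coding length with 684 CPM per kilobase. Rpl41, which encodes the smallest ribosomal protein, followed with 640, and Rps29 with 476 CPM per kilobase. Counts cover the whole transcript, so a short coding length raises this measure. Rpl41 has 75 coding bases on a transcript of 560 bases. Its mean of 48.0 CPM was below the median of 75.7 CPM of the tested genes. The median of the 79 genes that passed the filter on low counts was 181 CPM per kilobase. The lowest of them were Rpl39l at 2.63, Rpl24 at 3.21 and Rps10 at 8.77 CPM per kilobase.

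Rpl24 and Rps10 encode core proteins, so their low values need the annotation beside them. In GENCODE, the exons of Rpl24 share 484 bases on the same strand with Gm28037, those of Rps10 share 475 bases with Gm49804, and those of Rpl13a, at 15.7 CPM per kilobase, share 621 bases with Gm45713. All of these overlapping genes are listed at 0 counts in all 19 libraries, whereas Rpl24 had 929, Rps10 2942 and Rpl13a 4350 counts over the 19 libraries. Rpsa had 131849 and Rps2 91654. Reads that fall on 2 genes of one strand cannot be assigned to either, so the values of Rpl24, Rps10 and Rpl13a may stand for a part of each transcript only. The part of the overlap in their changes was not tested. Other genes of the set share shorter stretches, mostly with small RNA genes, among them Rpsa with 156 bases, Rpl32 with 140 and Rps2 with 134. Rpl24, Rps10 and Rpl13a are counted with the set below. Without them, 44 of 76 tested genes were higher after LPS in wildtype mice and 40 of 76 in KO mice, by the test given below. Beside these, 22% and 24.2% of all genes tested were higher. The median log2 fold changes were 0.61 and 0.50, against -0.06 and -0.01 for all genes.

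The share of all counts that fell on ribosomal protein genes was higher after LPS in wildtype mice. It was 0.844%, 0.753%, 0.824% and 0.625% in the 4 wildtype mice with PBS and 1.15%, 1.02%, 1.10%, 1.18% and 1.10% in the 5 with LPS. The 2 wildtype groups did not overlap. In KO mice the share was 0.974%, 1.21%, 0.948%, 0.624% and 0.615% with PBS and 1.26%, 1.33%, 1.10%, 0.978% and 1.15% with LPS. These groups overlapped, because KO replicate 2 with PBS lay above 3 of the 5 KO mice with LPS. Means were 0.761% ± 0.0991 (SD, n = 4) against 1.11% ± 0.0628 (SD, n = 5) in wildtype and 0.875% ± 0.254 (SD, n = 5) against 1.16% ± 0.138 (SD, n = 5) in KO mice. Both subunits took part, with large subunit genes at 0.447% ± 0.0558 with PBS and 0.647% ± 0.0314 with LPS in wildtype mice and small subunit genes at 0.314% ± 0.0433 and 0.464% ± 0.0322. In such bulk samples, fewer cells of a type and less RNA per cell cannot be told apart.

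**Figure D1:**
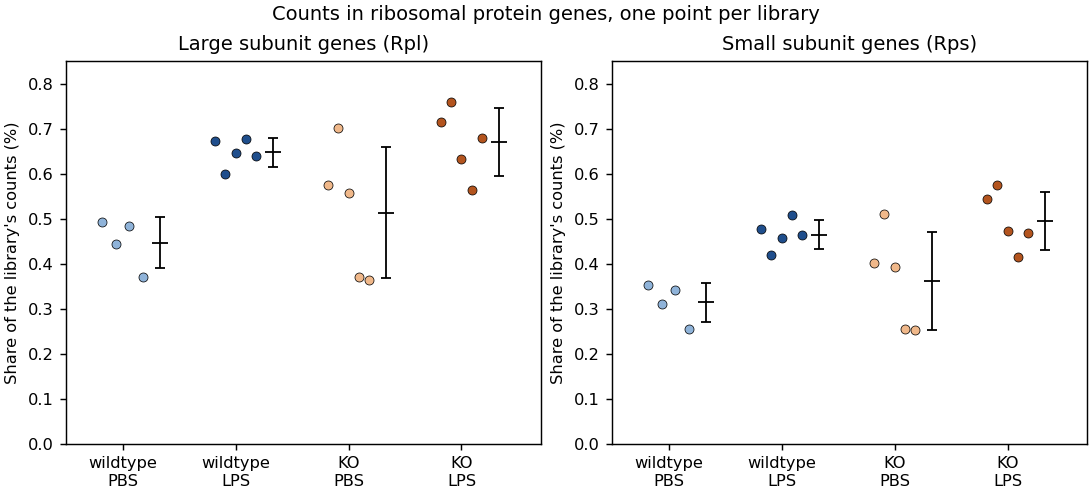
Share of each library's counts (%, linear axis from 0) that fell on large subunit genes (left) and small subunit genes (right), one point per mouse in replicate order, with the mean and SD beside each group. Wildtype mice with LPS sit above all wildtype mice with PBS in both panels, whereas KO mice with PBS spread from 0.363% to 0.701% for the large subunit and reach into the range of KO mice with LPS.

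The spread among PBS mice ran through nearly the whole set. KO replicate 2 had the highest level of the KO mice with PBS in 70 of the 79 tested genes, and KO replicates 4 and 5 were the lowest pair in 73. Wildtype replicate 4 was the lowest wildtype mouse with PBS in 73 of the 79. The median ratio of the highest to the lowest mouse was 2.23 in KO mice with PBS, 1.49 in wildtype mice with PBS, 1.55 in KO mice with LPS and 1.31 in wildtype mice with LPS. Rpl10a was the gene with the smallest ratio in KO mice with PBS, 1.16, and Rpl13a followed with 1.36. Among KO mice with PBS the summed microglial markers were also highest in replicate 2, at 27685 CPM, and lowest in replicates 4 and 5, at 19028 and 18638 CPM. Among wildtype mice with PBS they were at 19167 CPM in replicate 4, but lowest in replicate 2 at 17783 CPM. The share of counts on long noncoding RNAs ran in the opposite order at these ends. It was 1.27%, 1.10%, 1.47%, 2.10% and 2.01% in the KO mice and 1.52%, 1.69%, 1.67% and 2.12% in the wildtype mice with PBS. Their part in the spread was not tested.

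**Figure D2:**
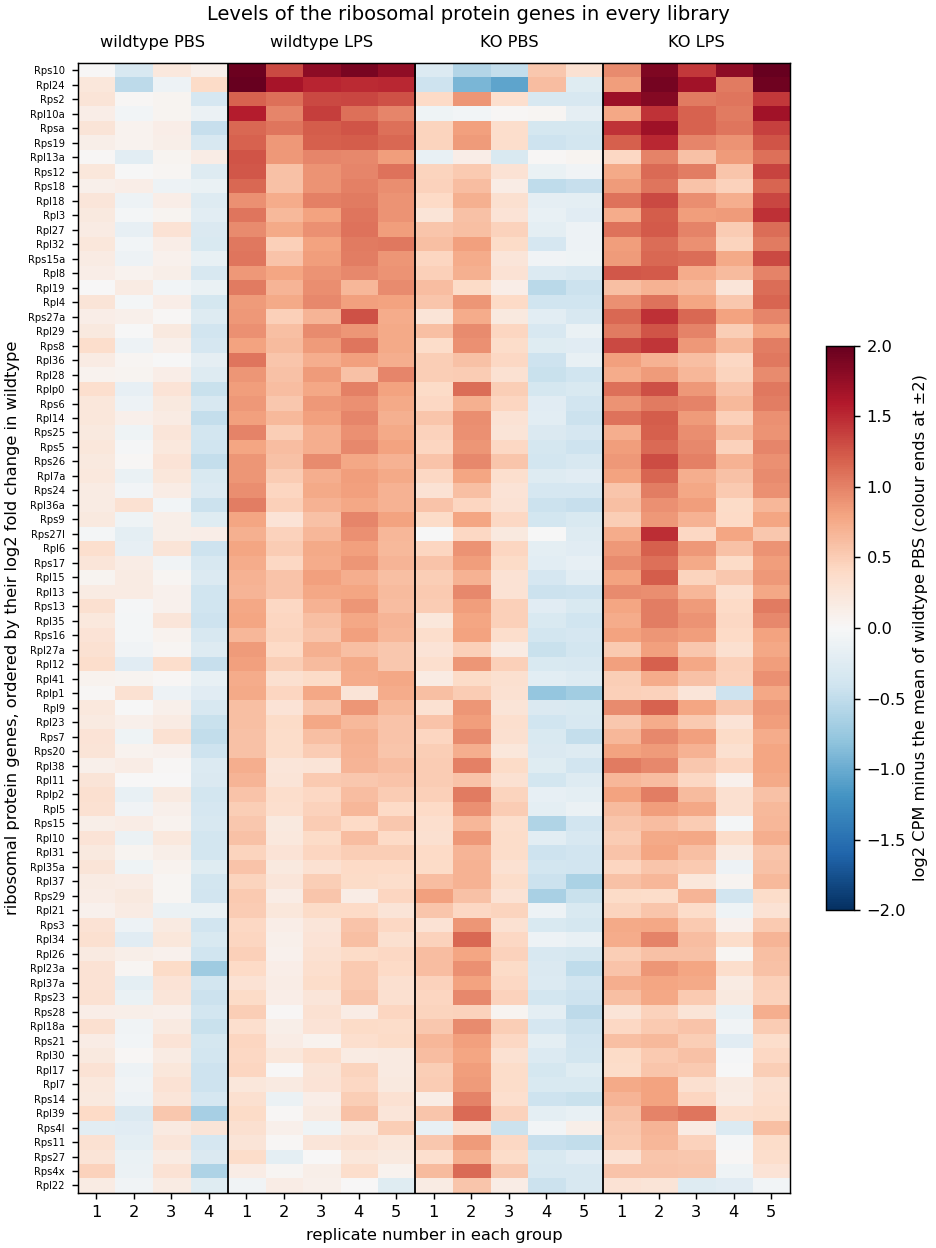
Level of 78 tested ribosomal protein genes (rows, ordered by their change in wildtype mice) in each of the 19 libraries (columns, by group and replicate number), as log2 CPM minus the mean of the wildtype PBS mice on a colour scale that ends at 2 in either direction. Rpl39l is left out because 1 library is at 0. The LPS columns are red for the upper rows and pale for the lowest rows, and the column of KO PBS replicate 2 is red in nearly all rows.

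After LPS, a large part of the set rose in wildtype mice and none of it fell. With the quasi-likelihood test of edgeR and p-values adjusted by Benjamini-Hochberg over all 18739 genes tested, 47 of the 79 tested genes were higher (59.5%), beside 22% of all genes tested. No ribosomal protein gene was lower, beside 19.7% of all genes, and none was lower at an unadjusted p under 0.05 or with DESeq2. The median log2 fold change (log2FC) was 0.62, against -0.06 for all genes, and 78 of the 79 values were above 0. The calls comprised 27 of 47 large subunit genes with a median log2FC of 0.60 and 20 of 32 small subunit genes with a median of 0.68. In 54 of the 79 genes all wildtype mice with LPS lay above all with PBS, beside 20.8% of all genes. Leaving out single mice gave 38 to 48 genes. Other protein-coding genes with a coding length in the range of the set had a median of -0.01, with 1637 higher and 1329 lower of 6482. The summed level of 4 monocyte markers (Ccr2, Ly6c2, Plac8 and Vcan, none at 0) was 25.9 to 41.3 CPM with PBS and 162 to 298 CPM with LPS in wildtype mice, 5 neutrophil markers were at 43.5 to 82.1 CPM with PBS and 117 to 336 CPM with LPS, and the sum of the microglial markers was lower, as given above. Their part in these changes was not tested.

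Of the 5 genes with the largest changes among those called in both genotypes, 3 have ordinary levels. Rps2, a protein of the mRNA entry site (chr17:24937080-24940904, GRCm39), was at 184, 157, 161 and 122 CPM in wildtype mice with PBS and at 351, 332, 386, 389 and 373 CPM with LPS. In KO mice Rps2 was at 203, 286, 195, 124 and 124 CPM with PBS and at 505, 551, 318, 325 and 411 CPM with LPS. Neither genotype's groups overlapped, and the log2FC was 1.23 ± 0.22 (SE, adjusted p = 0.000189) in wildtype and 1.18 ± 0.21 (adjusted p = 0.000113) in KO mice. Rpsa, the small subunit protein that is also known as the laminin receptor precursor (chr9:119956755-119962787), was at 276, 244, 254 and 168 CPM in wildtype mice with PBS and at 515, 488, 538, 551 and 498 CPM with LPS. KO mice had 316, 409, 295, 181 and 181 CPM of Rpsa with PBS and 631, 748, 523, 486 and 595 CPM with LPS. Rpsa thus more than doubled in the mean of wildtype mice without overlap, with a log2FC of 1.14 ± 0.21 (adjusted p = 0.000252), and in KO mice with 1.11 ± 0.20 (adjusted p = 0.000128).

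Rpl10a, a large subunit protein of the L1 stalk (chr17:28547144-28550008), combined a large change with little spread at PBS. It was at 81.0, 70.9, 76.4 and 67.9 CPM in wildtype mice with PBS and at 219, 146, 192, 159 and 145 CPM with LPS. In KO mice Rpl10a was at 69.4, 71.0, 74.7, 75.7 and 65.4 CPM with PBS, where the median ratio between mice over the set was 2.23, and at 126, 201, 167, 151 and 237 CPM with LPS. Its log2FC was 1.22 ± 0.16 (adjusted p = 5.02e-06) in wildtype and 1.31 ± 0.15 (adjusted p = 7.03e-07) in KO mice, the smallest p-values of the set. Rps10 and Rpl24 had the largest changes on their few counts. Rps10 rose from 3.46 to 4.99 CPM to 10.8 to 16.8 CPM in wildtype mice (log2FC 1.75 ± 0.26, adjusted p = 2.63e-05), and Rpl24 from 1.03 to 1.93 CPM to 4.16 to 6.14 CPM (log2FC 1.62 ± 0.34, adjusted p = 0.000681). The KO values were 1.72 ± 0.24 for Rps10 and 1.82 ± 0.31 for Rpl24. Both have the annotated overlap described above, whose part was not tested.

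The genes nearest to no change in wildtype mice were Rpl22, Rps4x and Rps27. Rpl22, a large subunit protein that also binds viral and cellular RNAs, was at 50.4, 42.9, 50.5 and 38.0 CPM in wildtype mice with PBS and at 42.9, 49.98, 48.3, 45.4 and 38.3 CPM with LPS. The groups overlapped fully, with a log2FC of -0.01 ± 0.18 in wildtype and -0.05 ± 0.17 in KO mice, signs that turned under some of the alternatives. Rps4x, an X-linked gene of the small subunit, was at 398, 267, 353 and 189 CPM with PBS and 323, 298, 315, 369 and 303 CPM with LPS in wildtype mice. Its PBS mice spread more widely than its LPS mice, and the log2FC of 0.09 ± 0.26 was well within that spread. Rps27, also called metallopanstimulin, was at 60.3 to 87.4 CPM with PBS and 64.1 to 94.3 CPM with LPS in wildtype mice (log2FC 0.12 ± 0.19, adjusted p = 0.666). The 32 genes that were not called had a higher median level per coding length, 232 CPM per kilobase, than the 47 called genes with 162, and a shorter median coding length, 379.5 against 480 bases. Without division by coding length, the median levels were 86.6 CPM in the genes not called and 74.1 CPM in the called genes. The median SE was 0.21 in the genes not called and 0.20 in the called genes. These medians are a description.

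**Figure D3:**
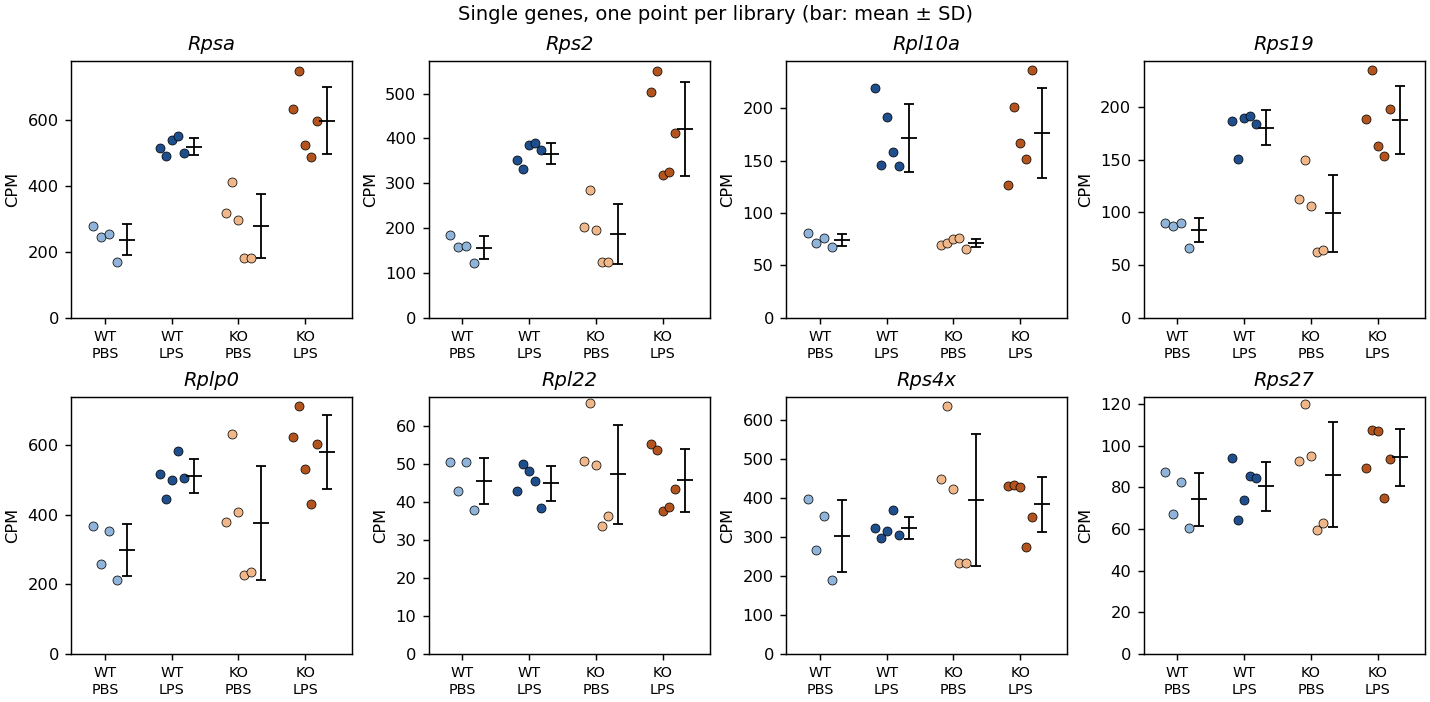
CPM (linear axes from 0) of 8 single genes, one point per mouse, with mean and SD beside each group. In the panels of Rpsa, Rps2, Rpl10a and Rps19 all mice with LPS lie above all mice with PBS of their genotype, whereas the groups of Rpl22, Rps4x and Rps27 overlap.

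In KO mice, 43 of the 79 tested genes were higher after LPS (54.4%), beside 24.2% of all genes tested. None was lower, beside 21.9% of all genes, also at an unadjusted p under 0.05 and with DESeq2. The median log2FC was 0.52, against -0.01 for all genes, and 77 of the 79 values were above 0. All 43 genes were among the 47 called in wildtype mice, beside 20.3% of all genes that were called higher in both genotypes. The 4 genes called in wildtype mice only were Rpl11, Rpl13, Rpl23 and Rps9, and none of them passed the test of the interaction given below. Only 14 of the 79 genes had all KO mice with LPS above all with PBS, which is 17.7% beside 16.2% of all genes, and thus near the background. These 14 were Rpl3, Rpl10a, Rpl13a, Rpl18, Rpl24, Rpl41, Rps2, Rps10, Rps12, Rps15a, Rps19, Rps27a, Rps27l and Rpsa, and each was also free of overlap in wildtype mice.

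The number of calls in KO mice depended on single libraries more than that in wildtype mice. It was 57 without KO replicate 2 with PBS, beside 23.3% of all genes tested in that fit, 27 without KO replicate 4 with PBS, beside 23.1%, and 28 without KO replicate 2 with LPS, beside 22.6%. The 14 genes that gained a call without KO replicate 2 with PBS were Rpl5, Rpl10, Rpl13, Rpl23, Rpl31, Rpl34, Rpl37a, Rpl38, Rplp2, Rps3, Rps7, Rps9, Rps14 and Rps15. Rpl11, Rpl13 and Rps4l gained one without KO replicate 4 with LPS, so that each of the 4 genes called in wildtype mice only was called in KO mice when 1 mouse was left out. With the mice numbered 1 to 3 of each group only, an alternative added after the values were seen, 22 genes were higher in KO mice, beside 18.3% of all genes, and 46 in wildtype mice, beside 17.999%. The median log2FC in KO mice was between 0.41 and 0.66 when single mice were left out, and 0.34 with mice 1 to 3 only, against 0.52 with all mice. The 4 monocyte markers summed to 23.4 to 33.8 CPM with PBS and 106 to 286 CPM with LPS in KO mice. The 5 neutrophil markers overlapped there, at 16.1 to 165 CPM with PBS and 66.1 to 311 CPM with LPS. Their part was not tested.

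**Figure D4:**
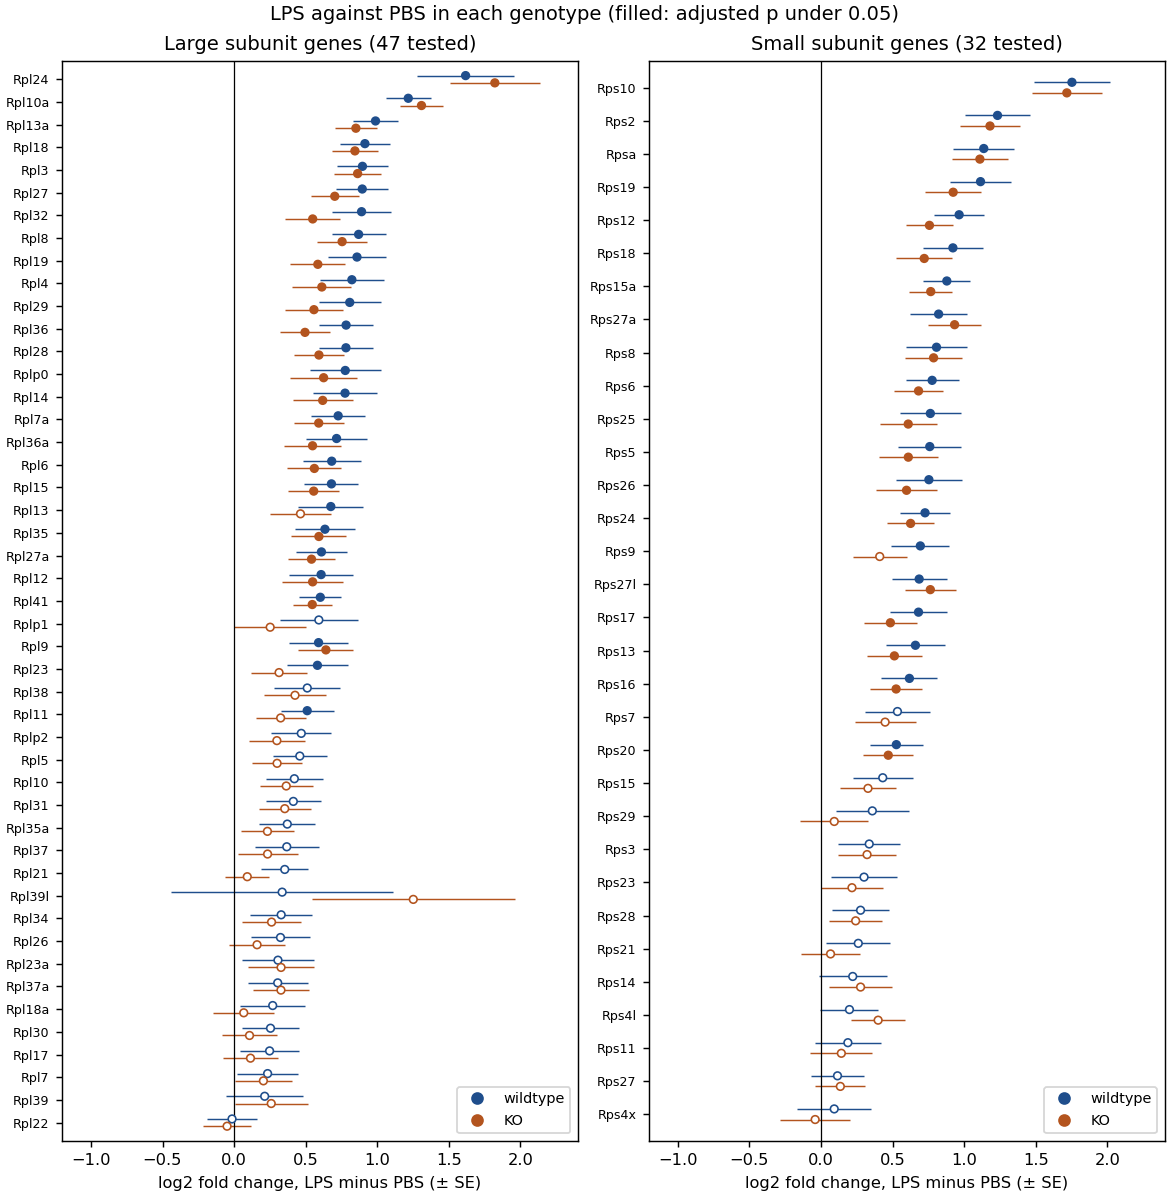
Log2 fold change of LPS against PBS with its SE for the 47 tested large subunit genes (left) and the 32 tested small subunit genes (right), in wildtype (blue) and KO mice (orange), each panel ordered by the wildtype value. Filled points passed an adjusted p under 0.05. Nearly all points lie right of 0, with Rps10 and Rpl24 at the top and Rpl22 and Rps4x at the bottom.

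The stalk of the large subunit, built from Rplp0, Rplp1 and Rplp2, recruits and activates the GTPases of elongation. Rplp0, its base (chr5:115694515-115701793), was at 367, 259, 353 and 213 CPM in wildtype mice with PBS and at 518, 446, 498, 584 and 506 CPM with LPS. All wildtype mice with LPS were higher, and the log2FC was 0.78 ± 0.25 (adjusted p = 0.017). In KO mice Rplp0 ranged from 227 to 631 CPM with PBS and from 431 to 712 CPM with LPS. Its change there of 0.63 ± 0.23 (adjusted p = 0.0339) lost the call without low-count filtering, with upper quartile scaling, in a fit of the 2 groups alone, with the mice numbered 1 to 3 only and without any one of KO LPS replicates 2 and 5 and KO PBS replicates 1, 4 and 5. In wildtype mice it lost the call without PBS replicate 4 (adjusted p = 0.0556). Rplp1 had a log2FC of 0.59 ± 0.27 in wildtype (adjusted p = 0.0889) and 0.25 ± 0.25 in KO mice (adjusted p = 0.449), and Rplp2 had 0.47 ± 0.21 (adjusted p = 0.0838) and 0.30 ± 0.20 (adjusted p = 0.235). Neither passed the test, although all wildtype mice with LPS were above those with PBS for Rplp2, at 136 to 163 CPM against 82.5 to 133 CPM. Rplp1 was called in wildtype mice in a fit of the 2 groups alone (adjusted p = 0.0125) and with the mice numbered 1 to 3 only, and Rplp2 with the animal number as a covariate (adjusted p = 0.0333).

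Mammals keep a few duplicated ribosomal protein genes, of which several are used mainly in testis or muscle. Rpl10l, the testis copy of Rpl10, had 0 counts in all 19 libraries. Rpl3l, the muscle copy of Rpl3, had 0 to 6 counts per library, with the 6 counts in wildtype LPS replicate 5. These were the 2 genes that did not pass the filter, and their counterparts were abundant. Rpl3 was at 212 to 283 CPM with PBS and 384 to 517 CPM with LPS in wildtype mice (log2FC 0.90 ± 0.18, adjusted p = 0.000394), and at 210 to 371 CPM and 411 to 678 CPM in KO mice (0.86 ± 0.16, adjusted p = 0.000244). Rpl10, from which the testis copy derives, had 0.42 ± 0.20 in wildtype mice (adjusted p = 0.0987).

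Rpl39l was near the limit of detection with 0 to 25 counts per library and a log2FC of 0.34 ± 0.78 in wildtype and 1.25 ± 0.71 in KO mice, neither past the test. Its counterpart Rpl39 was at 30.1 to 69.4 CPM with PBS and 48.4 to 71.4 CPM with LPS in wildtype mice (log2FC 0.21 ± 0.27). Rps4l, an autosomal relative of Rps4x, was at 7.94 to 11.2 CPM with PBS and 8.79 to 13.0 CPM with LPS in wildtype mice, with a log2FC of 0.20 ± 0.20. Rps27l, a p53-responsive relative of Rps27, was the one of the 3 tested copies with a suffix l that passed the test. It was at 10.9, 9.82, 12.2 and 12.3 CPM in wildtype mice with PBS and at 18.5, 15.5, 17.9, 21.3 and 17.8 CPM with LPS, without overlap. Its log2FC was 0.69 ± 0.19 (adjusted p = 0.00724) in wildtype and 0.76 ± 0.18 (adjusted p = 0.00167) in KO mice, beside 0.12 ± 0.19 and 0.13 ± 0.18 for Rps27; the difference between the paralogs was not tested. With the mice numbered 1 to 3 only, Rps27l lost its call in wildtype mice (adjusted p = 0.0549).

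Several ribosomal proteins bind Mdm2 and thereby stabilise p53. Among them, Rpl11 rose in wildtype mice from 33.3 to 48.7 CPM to 48.7 to 65.2 CPM (log2FC 0.51 ± 0.19, adjusted p = 0.0337), and Rpl23 from 40.8 to 63.1 CPM to 72.7 to 95.2 CPM (0.58 ± 0.21, adjusted p = 0.0339). Both calls were lost with DESeq2, at adjusted p-values of 0.0672 and 0.058. They were also lost with no low-count filter (0.103 and 0.0804), with at least 10 counts in every sample (0.0576 and 0.0508), with DESeq2 size factors in edgeR (0.0587 and 0.0534) and with upper quartile scaling (0.0712 and 0.0633). Leaving out any one of 6 mice lost the call of Rpl11 and any one of 3 that of Rpl23, with adjusted p-values of up to 0.0877 for Rpl11 and 0.101 for Rpl23, both without wildtype PBS replicate 4. Rpl5 had 0.46 ± 0.19 (adjusted p = 0.0561), and was called without wildtype PBS replicate 1 (adjusted p = 0.032), without wildtype LPS replicate 2 (0.0473), without rRNA and mitochondrially encoded genes (0.0438) and with the animal number as a covariate (0.0246), and Rpl26, which also promotes translation of the p53 mRNA, 0.32 ± 0.21 (adjusted p = 0.233) in wildtype mice. None of these 4 genes passed the test in KO mice, where their log2FC ranged from 0.16 to 0.33.

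Rpl13a, which in myeloid cells belongs to the complex that silences inflammatory mRNAs after interferon-gamma, was at 9.64, 8.18, 9.85 and 10.5 CPM in wildtype mice with PBS and at 22.8, 17.4, 18.7, 18.6 and 17.1 CPM with LPS. KO mice had 8.53, 10.4, 7.67, 9.64 and 9.89 CPM with PBS and 12.7, 18.9, 14.2, 17.1 and 20.4 CPM with LPS. No mouse with LPS fell into the PBS range, and the log2FC was 0.99 ± 0.16 (adjusted p = 4.28e-05) in wildtype and 0.85 ± 0.15 (adjusted p = 8.04e-05) in KO mice, on a gene whose annotation overlaps with Gm45713. Rps3, a small subunit protein that also joins NF-kappaB at some promoters, did not pass the test, at 176 to 282 CPM with PBS and 251 to 340 CPM with LPS in wildtype mice (log2FC 0.34 ± 0.22, adjusted p = 0.233). Rps6, the substrate of the S6 kinases downstream of mTORC1, rose from 50.2 to 73.3 CPM to 91.3 to 118 CPM in wildtype mice (0.78 ± 0.19, adjusted p = 0.00217) and with 0.68 ± 0.17 (adjusted p = 0.00303) in KO mice.

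Rps19, the gene most often mutated in Diamond-Blackfan anaemia, was at 89.9, 87.1, 90.2 and 66.3 CPM in wildtype mice with PBS and at 187, 151, 190, 191 and 184 CPM with LPS, with a log2FC of 1.11 ± 0.21 (adjusted p = 0.000289). In KO mice its change was 0.92 ± 0.20 (adjusted p = 0.000699), again without overlap. Rps27a, made as a fusion with ubiquitin, rose from 40.9 to 53.6 CPM to 68.2 to 118 CPM in wildtype mice (0.82 ± 0.20, adjusted p = 0.00229) and from 39.3 to 82.1 CPM to 85.5 to 134 CPM in KO mice (0.93 ± 0.18, adjusted p = 0.000352). Rpl38, which favours the translation of Hox mRNAs in the embryo, had 0.51 ± 0.23 (adjusted p = 0.0864) and 0.43 ± 0.22 (adjusted p = 0.118), and passed in wildtype mice in a fit of the 2 groups alone (adjusted p = 0.0395). Of the genes with the highest levels per coding length, Rpl41 rose in both genotypes, with 0.60 ± 0.15 (adjusted p = 0.0024) and 0.55 ± 0.14 (adjusted p = 0.00268). Its KO call was lost with the mice numbered 1 to 3 only (adjusted p = 0.0598). Rps29 had 0.36 ± 0.25 and 0.09 ± 0.24 and was not called.

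The loss of DJ-1 was compared within each treatment at the study's threshold, an unadjusted p under 0.05 with a log2FC of at least 0.5 in size. No ribosomal protein gene passed it after LPS, beside 1.31% of all genes, and none at PBS, beside 0.8% of all genes. At an unadjusted p under 0.05 with any fold change there was also none, beside 2.57% of all genes after LPS and 1.04% at PBS. DESeq2 gave 0 genes in both comparisons as well. The smallest p-values were those of Rpl34, a large subunit protein, with a log2FC of 0.34 ± 0.20 after LPS and 0.41 ± 0.22 at PBS. Their unadjusted p-values in edgeR were 0.112 and 0.0772. At PBS, Rpl34 passed the threshold, higher in KO mice, without KO PBS replicate 4, KO PBS replicate 5 or wildtype PBS replicate 1. Rpl24 also passed without KO PBS replicate 4, lower in KO mice, and Rps4x without KO PBS replicate 5, higher in KO mice. A median SE of 0.19 after LPS and 0.21 at PBS sets how small a difference of a single gene could be seen.

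The values themselves lay mostly on one side. KO minus wildtype was above 0 in 64 of the 79 genes after LPS with a median log2FC of 0.13, and in 73 of the 79 at PBS with a median of 0.24, against 0.02 and 0.00 for all genes. The 6 exceptions at PBS were Rpl10a, Rpl13a, Rpl24, Rpl39l, Rps10 and Rps4l, named here after their values were seen. They include the 3 genes with the longest annotated overlaps, given above. The genes of the set rise and fall together between mice, so these counts do not stand for independent results. With the mice numbered 1 to 3 only, 13 genes passed the threshold at PBS, all higher in KO mice and beside 1.85% of all genes, and 5 after LPS, all higher in KO mice and beside 4.59% of all genes. Rpl34 was among them in both comparisons. These 3 KO mice with PBS include replicate 2 and leave out replicates 4 and 5, the mice with the highest and the lowest shares.

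Whether the change after LPS differs between the genotypes was tested directly. The interaction of genotype and LPS gave 0 genes at an adjusted p under 0.05, beside 0% of all genes, and 0 at an unadjusted p under 0.05, beside 0.961% of all genes. DESeq2 also gave 0 at an adjusted p under 0.05. The smallest p was 0.238, for Rpl32, with a difference of -0.34 ± 0.28. The difference was below 0 in 67 of the 79 genes with a median of -0.12. Since KO mice with PBS enter both this contrast and the comparison of genotypes at PBS, the directions of the 2 are not independent.

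Other lists of translation genes each held more genes called higher than lower after LPS in wildtype mice. These lists were drawn up with earlier results of these data known, and the genes of largest change in each are named, with a few others chosen after their values were seen. Of 33 initiation factors, 29 were higher and 1 was lower, with a median log2FC of 0.96. Of all genes tested, 22% were higher and 19.7% lower, and the counts of the lists are to be read beside these shares. Examples are Eif4a1, the RNA helicase that unwinds mRNA leaders, with 1.78 ± 0.15, Eif5a with 1.69 ± 0.15, and Eif6, which keeps the subunits apart during 60S maturation, with 1.61 ± 0.15. Of 7 genes with elongation factor symbols, 5 were higher, among them Eef1g with 1.53 ± 0.17 and Eef2, the translocase, with 0.60 ± 0.18. Eef1e1 had the largest rise, 2.27 ± 0.23, but is listed by its symbol only and is not itself an elongation factor. Eef1a1, the most abundant of the list, had 0.51 ± 0.22 and was not called (adjusted p = 0.0777). The 1 that was lower was Eef2k, the kinase that inhibits Eef2, with -2.55 ± 0.31. Of 8 genes listed as other TOP mRNAs, 7 were higher with a median of 1.12. The largest values were those of the noncoding snoRNA host genes Snhg1, with 1.85 ± 0.27, and Gas5, with 1.75 ± 0.23. Npm1, a chaperone of ribosome assembly, had 1.54 ± 0.18, whereas Tpt1 had 0.15 ± 0.22 and was not called. TOP mRNAs of translation factors are counted in other lists, so this median depends on how the list was drawn.

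Of 9 ribosome-associated genes outside the rule, 4 were higher with a median of 0.48, among them Rack1, the scaffold on the 40S head, with 1.00 ± 0.21 (adjusted p = 0.00082). Rpl36al had the largest value, 1.22 ± 0.49, which did not pass (adjusted p = 0.0507). Fau, which encodes eS30, had 0.32 ± 0.23 and Rps3a1, which encodes eS1, 0.32 ± 0.24, and neither passed the test. Of 15 genes that control TOP mRNAs or ribosome production, 7 were higher and 2 lower. All of these counts stand beside 22% of all genes higher and 19.7% lower. Larp1, which binds the TOP tract, rose with 1.65 ± 0.11, Myc, a driver of ribosome production, with 1.77 ± 0.22 and Eif4ebp1, a translational repressor that mTORC1 inactivates, with 1.60 ± 0.17. Rptor, the mTORC1 subunit raptor, fell with -0.73 ± 0.14 and Eif4ebp2 with -0.78 ± 0.16. Of 77 tested mitochondrial ribosomal proteins, which form a separate ribosome, 36 were higher and 0 lower with a median of 0.38, and Mrps18b had the largest change with 1.98 ± 0.15. In KO mice the counts of genes higher and lower were 28 and 1 of 33 initiation factors and 5 and 1 of 7 genes with elongation factor symbols. They were 5 and 0 of 9 ribosome-associated genes outside the rule and 8 and 2 of 15 genes that control TOP mRNAs or ribosome production. For other TOP mRNAs they were 7 and 0 of 8, and for mitochondrial ribosomal proteins 39 and 2 of 77. All stand beside 24.2% of all genes higher and 21.9% lower.

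**Figure D5:**
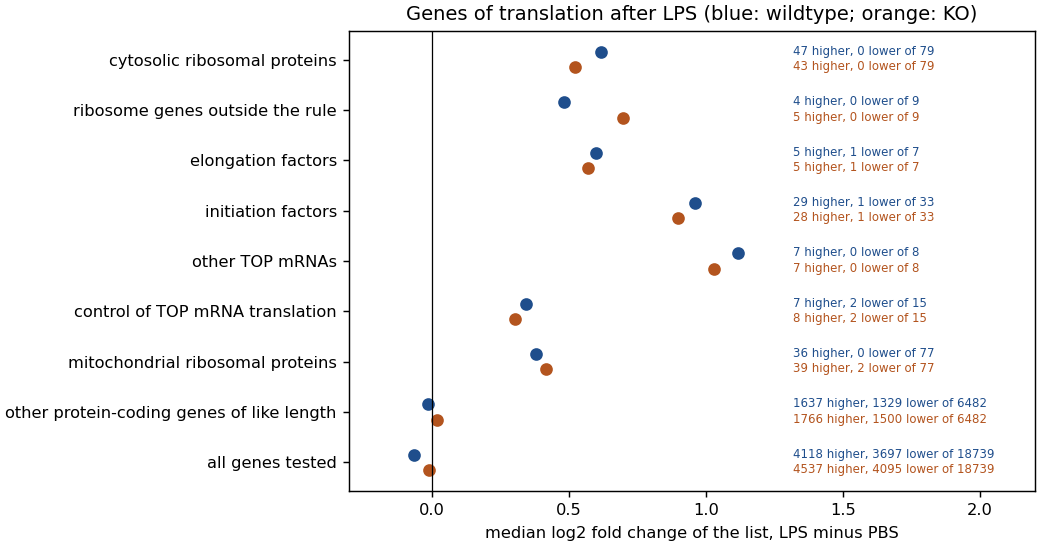
Median log2 fold change of LPS against PBS for ribosomal protein genes, other lists of translation genes, other protein-coding genes of like coding length and all genes tested, in wildtype (blue) and KO mice (orange). The text at the right gives the number of genes higher and lower at an adjusted p under 0.05. Initiation factors and other TOP mRNAs lie furthest right, and the 2 reference rows lie near 0.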

How the data were processed

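RNA of CD11b+ brain cells from 19 male mice was sequenced as stranded total RNA after depletion of ribosomal RNA. After trimming by Cutadapt, the authors used STAR 2.7.9a for alignment to GRCm39 and for gene counting with an Ensembl annotation, and deposited raw counts per gene without normalization. Tests were run with edgeR 4.0.16 under R 4.3.3. The filterByExpr function, at a minimum of 10 counts and 15 in total, passed 18739 of 56980 genes, and TMM factors and 1 quasi-likelihood fit of all 19 libraries with 4 groups were used. LPS contrasts were called at a Benjamini-Hochberg adjusted p under 0.05, KO against wildtype at an unadjusted p under 0.05 and an absolute log2FC of at least 0.5, and the interaction at an adjusted p under 0.05. The SE is the log2FC divided by the square root of F. Names and GRCm39 coordinates came from GENCODE M39, which matched 56236 genes, and coding lengths from its CCDS transcripts (for Rps4l, from its canonical transcript).

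Genes named with values were the stalk proteins and Rpsa, paralogs with a suffix l and their counterparts, 11 with roles beyond the ribosome, the 5 largest changes called in both genotypes in either direction, the 3 nearest 0, the 3 highest and 3 lowest levels, those called between genotypes or in the interaction, and those not tested. Rpl34 and Rpl32, with the smallest p-values of the genotype contrasts, were chosen after their values were seen. The members and lists were chosen with earlier results of these data known. Ribosomal proteins have many processed pseudogenes, and 316 named pseudogene rows held 0.275 to 0.539% as many counts as the genes themselves, so that some reads may be lost or shared between copies. The labels do not say that animals were processed apart, so p-values measure the spread between these mice. No 2 libraries of a group agreed within sampling noise (chi-square per degree of freedom at least 6.5). DESeq2 1.42.0, other scalings and filters, a replicate block and each mouse left out were alternatives. Protein sequences were not used here. One marker gene of the lists is not reported here.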

Additional observations from a re-analysis of the deposited data

Results flagged for a closer look

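In each group of 4 or 5 mice, a single mouse was set apart when its gap to the next was large against the range of the group (Dixon's ratio at the 95% level). Of 132 groups of values examined, 10 were set apart, and chance alone sets apart about 1 in 20 groups. Wildtype LPS replicate 1 was highest for Rpl13a at 22.8 CPM, against 17.1 to 18.7 CPM in the others, and for Rpl24 at 6.14 CPM, against 4.16 to 4.60 CPM. Wildtype PBS replicate 4 was lowest for Rpl23 at 40.8 CPM, against 59.5 to 63.1 CPM, and for Rps19 at 66.3 CPM, against 87.1 to 90.2 CPM. Wildtype LPS replicate 2 was lowest for Rps19 at 151 CPM, against 184 to 191 CPM. KO LPS replicate 4 was lowest for Rpl26 at 63.5 CPM, against 87.2 to 93.7 CPM, and KO LPS replicate 2 was highest for Rps27l at 31.5 CPM, against 15.1 to 19.6 CPM. Rpl3l, at 0 to 6 counts per library, was highest at 0.061 CPM in wildtype PBS replicate 2, at 0.512 CPM in wildtype LPS replicate 5 and at 0.123 CPM in KO PBS replicate 1.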

How the results depend on the processing

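In wildtype mice 40 to 52 genes were higher after LPS under other filters, scalings, tools and covariates and 38 to 48 when single mice were left out, against 47. All genes called higher in these fits were 10.1 to 24.6% and 19.6 to 22.4%. In KO mice 43 became 22 with the mice numbered 1 to 3 only (chosen after the values were seen, 18.3% of all genes), 31 in a fit of the 2 groups alone (22.8%) or with no low-count filter (11.6%), and 27 to 57 when single mice were left out (22.4 to 26.0%). KO against wildtype gave 13 genes at PBS and 5 after LPS with mice 1 to 3, beside the shares of all genes given above for these mice. When single mice were left out it gave 0 to 2 at PBS and 0 after LPS. With all mice, 0.8% of all genes passed at PBS and 1.31% after LPS. The medians kept their direction, and that in KO mice was 0.34 with mice 1 to 3 against 0.52. DESeq2 gave 43 and 39 genes, beside 12.008 and 13.8% of all genes with any count. That set, also used with no low-count filter, is larger than the 18739 genes of the main fit. These shares are therefore not on the same footing as those of the main fit.

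Log2 fold changes near 0 turned sign, none of them called. Rps29 in KO was -0.00716 under library totals. Rps4x in wildtype was -0.0132 under upper quartile scaling. Rpl22 in wildtype was 0.00744 without rRNA and mitochondrially encoded genes. With the animal number as covariate Rpl22 in wildtype was 0.0283 and Rps4x in KO 0.0198. With mice 1 to 3, wildtype values were 0.00532 for Rpl22, -0.0338 for Rpl39, -0.000727 for Rps27 and -0.0921 for Rps4x, and KO values -0.0495 for Rpl26, -0.0643 for Rplp1 and -0.0726 for Rps29. Without single mice, Rpl22 ran from -0.0661 to 0.0402 in wildtype and -0.1504 to 0.101 in KO, Rps4x from -0.0540 to 0.256 and -0.183 to 0.199, Rps29 in KO from -0.0634 to 0.285, and Rpl39l in wildtype from -0.0596 to 1.70. The causes were not tested.

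Replicate numbers are shared by the groups but mark different animals. Deviations of same-numbered mice with LPS and PBS correlated at -0.0418 to 0.576 in wildtype and 0.0265 to 0.544 in KO mice, and those of KO and wildtype mice at -0.573 to 0.300. Since not every pair was over 0.1, the numbers were not taken to pair the mice. With a replicate block 52 genes were higher in wildtype mice, with Rpl5 (adjusted p = 0.026) and Rplp2 (adjusted p = 0.0335) now called, and 44 in KO mice, beside 21.2 and 23.8% of all genes, Rpl22 in wildtype was 0.0419 and Rps4x in KO 0.0102. Depth limits statements on Rpl39l, Rpl3l and Rpl10l.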
